A study of Mus musculus with 16 samples.

Results

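The genes described here are the 5 Rel family subunits of NF-κB (Nfkb1, Nfkb2, Rel, Rela and Relb) and 5 genes of the IκB family: the classical inhibitors Nfkbia, Nfkbib and Nfkbie and the atypical nuclear members Nfkbiz and Bcl3. They were chosen by symbol, and all 10 were found among the 27446 entries of the deposited table. Total RNA of mouse liver was sequenced in 16 libraries, 8 from wild-type C57BL/6 mice that received emodin at 400 mg/kg into the stomach for 3 weeks, suspended in 0.5% carboxymethyl cellulose sodium, and 8 from wild-type C57BL/6 mice that received this carrier alone (vehicle). Emodin is a plant anthraquinone, found for example in rhubarb root, and the title of the study names NF-κB among the systems of interest in its liver toxicity. The labels give neither age nor sex and do not tell whether the libraries are all from different mice, so the p-values measure the spread between libraries, each taken as 1 liver.

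NF-κB proteins act as dimers of Rel family subunits. In resting cells IκB proteins hold most of these dimers in the cytoplasm. When receptors such as those of TNF or IL-1 are engaged, the IκB kinase complex (IKK) phosphorylates the classical inhibitors, which are then degraded, and the freed dimers enter the nucleus. Nfkbia, Nfkbie, Nfkb2, Relb, Nfkbiz and Bcl3 are themselves known targets of NF-κB, so their transcripts are often read as part of the response. In the liver these genes are used by hepatocytes and by Kupffer cells, the resident macrophages, and in hepatocytes the acute phase signals IL-1 and IL-6 are known inducers of Bcl3 and Nfkbiz.

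Libraries held 28683413 to 38629551 estimated counts in the vehicle group and 28292161 to 48165643 in the emodin group. Emodin livers 2, 4, 5 and 8 stood apart for interferon-induced genes and for lower hepatocyte markers. The summed level of 7 interferon-induced genes was 662, 1598, 1166 and 1552 CPM there (counts scaled by library size with TMM factors), 90.5 to 101 CPM in the other 4 emodin livers and 54.1 to 106 CPM in the vehicle livers. These 4 livers were left out together in 1 alternative fit, which is given beside the results below. All 8 hepatocyte markers were present, and 1 of them fell; their summed level was 109900 ± 10500 CPM in vehicle and 82520 ± 16400 CPM in emodin livers (mean ± SD, n = 8 in each group here and throughout). This sum was 70694, 56052, 76980 and 70667 CPM in emodin 2, 4, 5 and 8, against 91540 to 104040 CPM in the other 4 emodin livers and 97768 to 126200 CPM in vehicle livers. Cholangiocyte markers (0 of 5 called) summed to 173 and 118 CPM in emodin 4 and 8 and to at most 65.9 CPM in every other liver. The part of these shifts in the levels of the family was not tested. Macrophage markers (0 of 9 called) summed to between 149 and 651 CPM in vehicle and between 229 and 614 CPM in emodin livers. In RNA of whole tissue, fewer cells of a type and less RNA per cell cannot be told apart. Summed markers of pancreas, muscle and fat were high in vehicle 2 (1450 CPM) and emodin 7 (361 CPM) and at most 1.17 CPM elsewhere.

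Of the 10 genes, 3 rose with emodin, 0 fell and 7 did not pass the test (quasi-likelihood test of edgeR, Benjamini-Hochberg adjusted p under 0.05 over all 14308 tested entries). All 3 belong to the IκB family: Bcl3, Nfkbiz and Nfkbib. Among all tested entries 13.2% were called in either direction, which is made up of 7.7% higher and 5.47% lower; 1.81% were called and at least 2-fold higher, as was Bcl3 alone among the 10. None of the 5 subunit genes passed, although 4 of the 5 had a log2 fold change above 0. Over the 10 genes 8 did, against 51.6% of all tested entries. The median log2 fold change was 0.60 over the 10 genes and 0.01 over all tested entries.

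**Figure D1:**
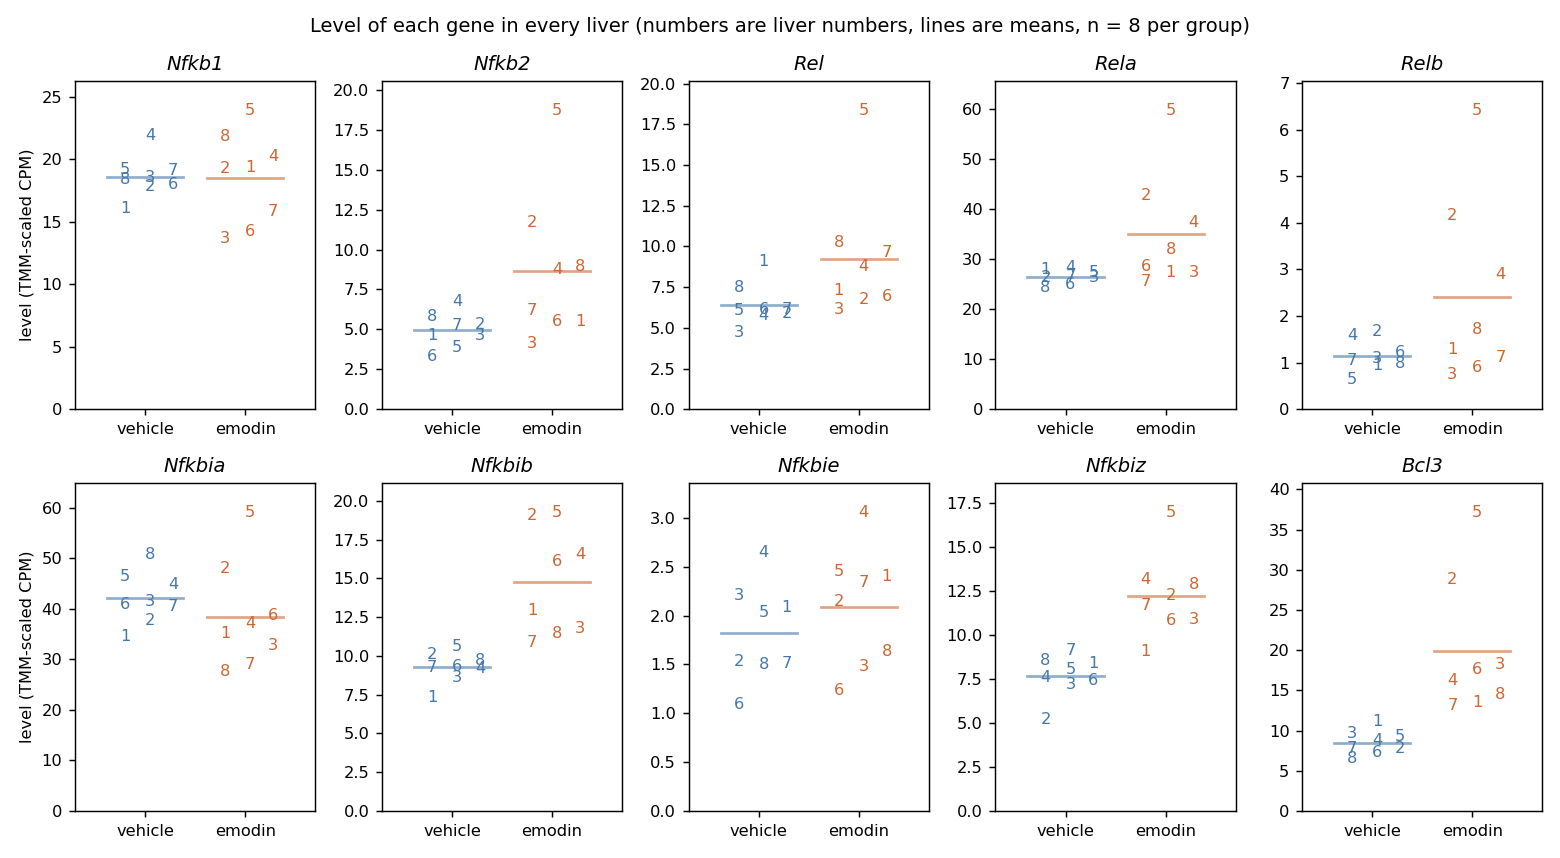
Level of each gene (TMM-scaled CPM, linear axis from 0) in the 8 vehicle and 8 emodin livers; each digit is 1 liver and the line is the mean of its group. Bcl3 and Nfkbib have every emodin liver above every vehicle liver, while emodin 5 is the highest emodin liver in every panel but that of Nfkbie.

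Bcl3 encodes a nuclear IκB protein that binds homodimers of the Nfkb1 and Nfkb2 products on DNA and can activate or repress with them. Its level was 6.47 CPM in the lowest vehicle liver, 8.28 CPM at the median and 11.1 CPM in the highest. The emodin livers had 13.4, 28.8, 18.2, 16.3, 37.1, 17.5, 13.1 and 14.5 CPM in livers 1 to 8. All 8 emodin livers lay above all 8 vehicle livers, and livers 2 and 5 were the highest. Bcl3 rose 2.34-fold, from 8.51 ± 1.49 to 19.9 ± 8.58 CPM (log2 fold change 1.22 ± 0.21 SE, edgeR adjusted p = 0.00191). It was also higher when emodin 2, 4, 5 and 8 were left out, by 1.84-fold (edgeR adjusted p = 0.0022, over 14 alternatives from 6.98e-07 to 0.00869). The gene lies on chromosome 7 from 19808462 to 19822770 on the minus strand (mm10, protein coding). The antisense gene Gm16175 shares 161 bases with its exons, and without strand their reads cannot be told apart.

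Nfkbib encodes IκBβ, a classical cytoplasmic inhibitor. It had 7.35 CPM in the lowest vehicle liver, 9.31 CPM at the median and 10.6 CPM in the highest. In emodin livers 1 to 8 its level was 12.9, 19.1, 11.8, 16.6, 19.3, 16.1, 10.9 and 11.4 CPM. The groups did not overlap, but the lowest emodin liver (liver 7) was close to the highest vehicle liver. Nfkbib rose 1.59-fold, from 9.28 ± 0.997 to 14.8 ± 3.43 CPM (log2 fold change 0.67 ± 0.13 SE, edgeR adjusted p = 0.00363). Among livers with low interferon genes, emodin 6 had 16.1 CPM and emodin 1, 3 and 7 had 12.9, 11.8 and 10.9 CPM. Among those with high interferon genes, emodin 8 had 11.4 CPM and emodin 2, 4 and 5 had 19.1, 16.6 and 19.3 CPM. The rise was 1.40-fold without emodin 2, 4, 5 and 8 (edgeR adjusted p = 0.0212, over the alternatives from 5.88e-05 to that value). Nfkbib lies on chromosome 7 from 28758251 to 28767512, and 42 bases of its exons overlap exons of Sirt2 and 314 bases those of Ccer2, both on the other strand. Ccer2 was at or near 0 CPM. Whether counting used strand is not stated; Sirt2 was at 39.7 ± 1.14 CPM in vehicle and 40.3 ± 5.82 CPM in emodin livers and did not pass the test (edgeR adjusted p = 0.885).

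Nfkbiz encodes IκBζ, a nuclear IκB protein that is induced by IL-1 and by Toll-like receptor ligands and is needed for a subset of secondary response genes. Its lowest, median and highest vehicle levels were 5.17, 7.81 and 9.13 CPM. The emodin livers 1 to 8 had 9.06, 12.3, 10.9, 13.2, 17.0, 10.9, 11.7 and 12.9 CPM. Only emodin 1 lay within the vehicle range, just under vehicle 7, and the other 7 were above every vehicle liver. Nfkbiz rose 1.59-fold, from 7.69 ± 1.21 to 12.2 ± 2.33 CPM (log2 fold change 0.67 ± 0.12 SE, edgeR adjusted p = 0.00318). The rise was 1.39-fold without emodin 2, 4, 5 and 8 (edgeR adjusted p = 0.0385, over the alternatives from 3.76e-05 to that value). It lies on chromosome 16 from 55811375 to 55838899.

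These 3 genes were the ones called in each of the 14 alternatives and in each of the 16 fits that left out 1 liver; additional genes of the family joined them in some of these fits. Complete separation of the groups, as in Bcl3 and Nfkbib, was seen with every emodin liver above every vehicle liver in 0.937% of all tested entries (134 of 14308), and every one below in 1.03%, with none of the 10 among them. When emodin 2, 4, 5 and 8 were left out, 6.8% of all tested entries were called.

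Nfkbia encodes IκBα, the inhibitor that is degraded and made anew fastest in the classical pathway, and it is one of the best known NF-κB targets. Its vehicle levels were 34.5 CPM at the lowest, 41.1 CPM at the median and 50.8 CPM at the highest. The emodin livers 1 to 8 had 35.1, 47.9, 32.7, 37.0, 59.0, 38.6, 29.0 and 27.6 CPM. Livers 3, 7 and 8 lay below every vehicle liver and liver 5 above every one. Nfkbia did not pass the test, with 42.1 ± 5.10 CPM in vehicle and 38.4 ± 10.5 CPM in emodin livers (log2 fold change -0.13 ± 0.14 SE, 95% interval -0.42 to 0.15, edgeR adjusted p = 0.541). Without emodin 2, 4, 5 and 8 the log2 fold change was -0.31 (edgeR adjusted p = 0.0813, over the alternatives up to 0.626). It lies on chromosome 12 from 55489410 to 55492647.

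Nfkbie encodes IκBε, a classical inhibitor known for slower resynthesis than IκBα. It was weakly expressed, with 35 to 133 estimated counts per liver. Vehicle livers had 1.09, 1.78 and 2.64 CPM at the lowest, the median and the highest, and emodin livers 1.23, 2.24 and 3.06 CPM. The groups overlapped almost throughout, and only emodin 4 exceeded every vehicle liver. Nfkbie did not pass the test (log2 fold change 0.20 ± 0.21 SE, 95% interval -0.24 to 0.64, edgeR adjusted p = 0.565).

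**Figure D2:**
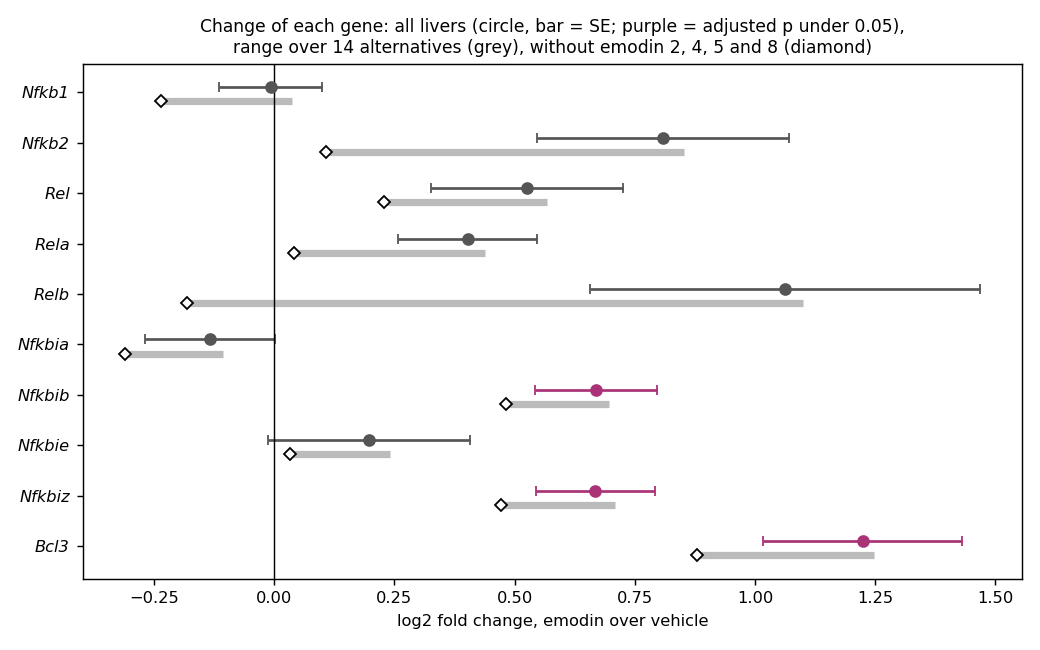
Log2 fold change of each gene, emodin over vehicle: circles with bars are the estimate and its SE over all 16 livers (purple where the adjusted p is under 0.05), grey bars the range over 14 alternatives, and diamonds the value without emodin 2, 4, 5 and 8. Bcl3, Nfkbib and Nfkbiz have their lowest values at 0.88, 0.48 and 0.47, whereas the diamonds of Nfkb2, Rela and Relb lie at 0.11, 0.04 and -0.18.

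Nfkb2 encodes the precursor that the alternative pathway processes into a DNA-binding subunit. Its vehicle levels were 3.32 CPM at the lowest, 4.92 CPM at the median and 6.73 CPM at the highest. Emodin livers 1 to 8 had 5.49, 11.7, 4.09, 8.75, 18.7, 5.48, 6.18 and 8.97 CPM. Livers 2, 4, 5 and 8 were above every vehicle liver, and the other 4 emodin livers lay within the vehicle range. Nfkb2 had 4.94 ± 1.07 CPM in vehicle and 8.67 ± 4.74 CPM in emodin livers, a log2 fold change of 0.81 ± 0.26 SE that lay just past the threshold (edgeR adjusted p = 0.0502). It was called by DESeq2 (adjusted p = 0.0182), with a minimum of 1 CPM in 8 livers (edgeR adjusted p = 0.0494), and without vehicle 4 or emodin 1, 3, 6 or 7 (log2 fold changes 0.88, 0.88, 0.92, 0.89 and 0.87). Without emodin 2, 4, 5 and 8 the log2 fold change was 0.11 (edgeR adjusted p = 0.774, the highest over the alternatives). Nfkb2 lies on chromosome 19 from 46304320 to 46312385, and its exons share 531 bases with the noncoding gene AC114539.1 and 299 bases with Psd on the other strand, a gene at 0.543 ± 0.155 CPM in vehicle and 0.758 ± 0.223 CPM in emodin livers.

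Relb encodes the subunit that pairs with the processed Nfkb2 product. It was the least abundant of the 10 per length, with 18 to 183 estimated counts per liver. The vehicle livers ranged from 0.630 over a median of 1.06 to 1.68 CPM. The emodin livers 1 to 8 had 1.29, 4.17, 0.740, 2.89, 6.41, 0.894, 1.11 and 1.71 CPM. Again livers 2, 4, 5 and 8 exceeded every vehicle liver, liver 8 by little, and the others did not. The log2 fold change of Relb was 1.06 ± 0.41 SE (edgeR adjusted p = 0.0909), the estimate next in size to that of Bcl3. It was called by DESeq2 (adjusted p = 0.0458) and without emodin 3 (1.21, edgeR adjusted p = 0.0458), was 0.68 without emodin 5, and was -0.18 without emodin 2, 4, 5 and 8 (edgeR adjusted p = 0.753, the highest over the alternatives).

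Rela encodes the main transactivating subunit of the classical pathway. Its level was the steadiest of the family in vehicle livers, at 24.3 CPM at the lowest, 26.5 CPM at the median and 28.4 CPM at the highest, a coefficient of variation of 5.18%. Emodin livers 1 to 8 had 27.4, 42.8, 27.4, 37.4, 59.7, 28.6, 25.5 and 31.9 CPM. Livers 2, 4, 5, 6 and 8 lay above every vehicle liver, liver 6 only marginally, and the coefficient of variation was 32.9%. The log2 fold change of 0.40 ± 0.15 SE did not pass (edgeR adjusted p = 0.0748). It did so without emodin 3 (0.46, edgeR adjusted p = 0.0481) or emodin 7 (0.46, 0.0389), and was 0.25 without emodin 5. Without emodin 2, 4, 5 and 8 it was 0.04 ± 0.06 SE (edgeR adjusted p = 0.745, over the alternatives from 0.0554 to that value). Rela lies on chromosome 19 from 5637483 to 5648130.

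Rel encodes c-Rel, a transactivating subunit best known from lymphocytes and myeloid cells. Its vehicle levels were 4.71 CPM at the lowest, 6.09 CPM at the median and 9.10 CPM at the highest. Emodin livers 1 to 8 had 7.32, 6.77, 6.15, 8.75, 18.3, 6.91, 9.60 and 10.2 CPM. Livers 5, 7 and 8 were above every vehicle liver, so the order differed from that of Nfkb2 and Relb, with liver 2 inside the vehicle range. Rel did not pass the test (log2 fold change 0.53 ± 0.20 SE, edgeR adjusted p = 0.0900), nor in any of the 14 alternatives or the 16 fits without 1 liver, and the value was 0.31 without emodin 5. Rel lies on chromosome 11 from 23736847 to 23770970.

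Nfkb1 encodes the precursor of the DNA-binding subunit that pairs with the Rela product. Vehicle livers had 16.1, 18.4 and 21.9 CPM at the lowest, the median and the highest, and emodin livers 13.7, 19.3 and 23.9 CPM. Emodin 3, 6 and 7 lay below every vehicle liver and emodin 5 above every one. The means were 18.6 ± 1.65 and 18.5 ± 3.64 CPM (log2 fold change -0.01 ± 0.11 SE, 95% interval -0.23 to 0.22, edgeR adjusted p = 0.972). Nfkb1 lies on chromosome 3 from 135584655 to 135691547, Relb on chromosome 7 from 19606217 to 19629438, and Nfkbie on chromosome 17 from 45555703 to 45563169.

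**Figure D3:**
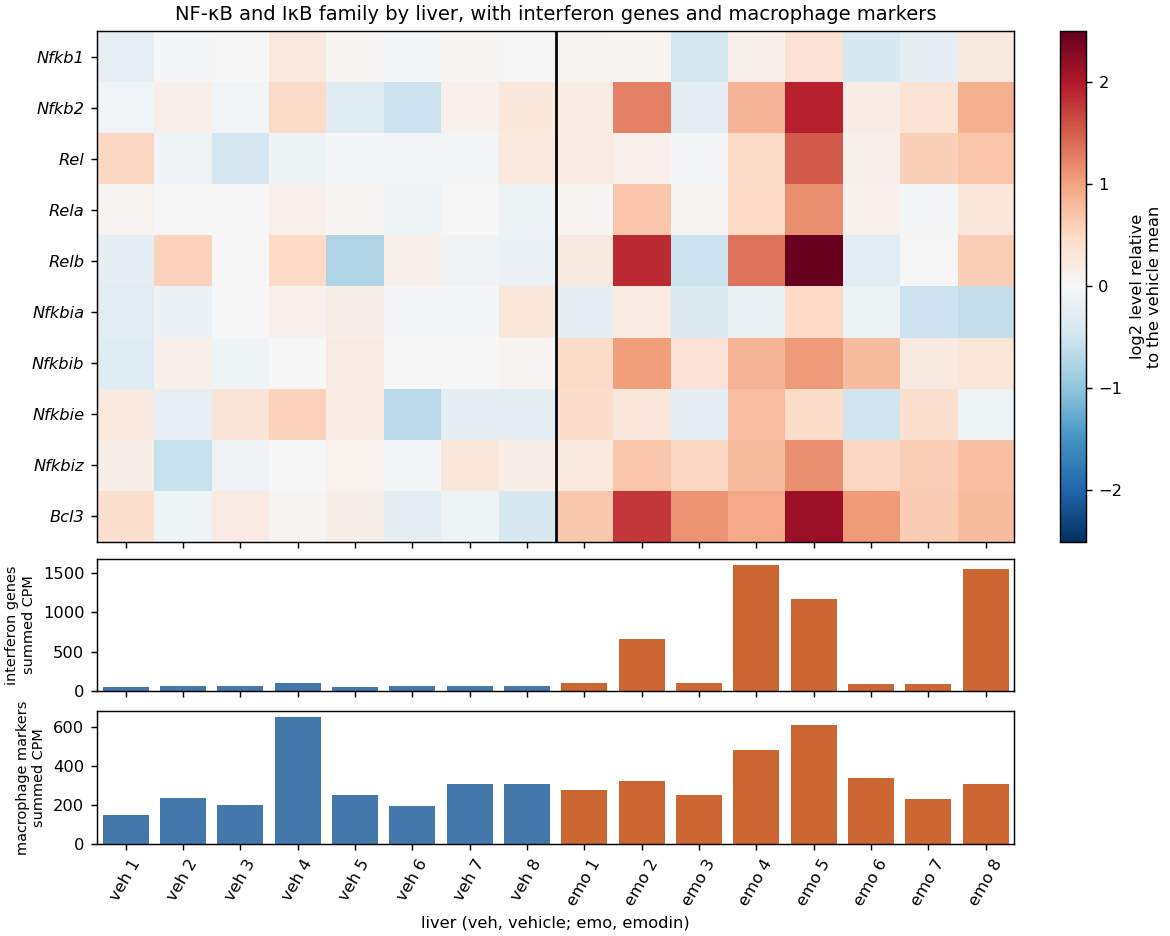
Log2 level of each gene in each liver relative to the mean of the vehicle livers (colour), above bars of the summed level (CPM) of 7 interferon-induced genes and of 9 macrophage markers. Emodin 2, 4, 5 and 8 are redder for Nfkb2 and Relb than every vehicle liver and have the high interferon bars. Relb in emodin 8 (0.61) is close to vehicle 2 (0.59), and Nfkb2 is also above 0 in some other livers. Bcl3 is red in all 8 emodin livers, and macrophage markers are highest in vehicle 4 and emodin 5.

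Emodin 5 carried the highest emodin level of 9 of the 10 genes, all but Nfkbie, and was above every vehicle liver for 9 of them, again all but Nfkbie. Across all tested entries emodin 5 was the highest emodin liver for 16.5% and above every vehicle liver for 24.5%. This library was the smallest of the 16, at 28292161 estimated counts. Its macrophage markers summed to 614 CPM, the highest of the emodin group, against 651 CPM in vehicle 4, where Nfkb1 (21.9 CPM), Nfkb2 (6.73 CPM), Rela (28.4 CPM) and Nfkbie (2.64 CPM) were the highest of the vehicle group. The remaining genes of the family were highest in other vehicle livers. In emodin 5, Nfkb1 (23.9 CPM), Nfkb2 (18.7 CPM) and Rela (59.7 CPM) were higher than in vehicle 4, and Nfkbie (2.46 CPM) was lower. The part of macrophage RNA, or of the interferon response, in the levels of the family was not tested. Emodin 2, 4, 5 and 8 together exceeded every vehicle liver in 6 of the 10 genes (Nfkb2, Rela, Relb, Nfkbib, Nfkbiz and Bcl3), as they did in 8.24% of all tested entries. The coefficient of variation was larger in the emodin group for 10 of 10 genes; this was so for 69.8% of all tested entries.

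Levels of different genes were compared per kilobase of exon (union of the GENCODE M21 exons of each gene). This union can be longer than the transcript that is present, and it was longest for Nfkb1, at 12.1 kb. The order of the genes and the size of their shares therefore depend on the length used, and Nfkb1 may be placed too low. In vehicle livers Nfkbia was the most abundant, at 26.1 ± 3.17 CPM per kb, followed by Rela at 8.64 ± 0.447, Nfkbib at 4.28 ± 0.459 and Bcl3 at 3.44 ± 0.604 CPM per kb. Then came Nfkb1 (1.54 ± 0.137), Nfkbiz (1.53 ± 0.24), Nfkb2 (1.08 ± 0.234), Rel (0.859 ± 0.177), Nfkbie (0.599 ± 0.165) and Relb (0.294 ± 0.0881 CPM per kb). The ranges of neighbours in this order did not overlap between Nfkbia and Rela, Rela and Nfkbib, or Bcl3 and Nfkb1; all other neighbours overlapped. With emodin the level of Bcl3 (8.03 ± 3.47 CPM per kb) stood ahead of that of Nfkbib (6.80 ± 1.58 CPM per kb), with overlapping ranges, and Nfkbia remained first at 23.8 ± 6.50 CPM per kb.

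The shares of Nfkbia and of Bcl3 in the IκB pool, which do not depend on the scaling of a library, did not overlap between the groups. The shares of the other IκB genes are not given here. Nfkbia made up 72.5 ± 2.64% of the summed per-length level of the 5 IκB genes in vehicle livers (67.7% to 77.2%) and 57.1 ± 1.9% in emodin livers (54.6% to 61.0%). Bcl3 made up 9.67 ± 2.21% (6.41% to 14.2%) and 18.7 ± 2.89% (15.2% to 23.2%). These shares were looked at after the values of the single genes were known and are given without a test. A share depends on the levels of all 5 genes of the pool. The level of Nfkbia itself did not pass the test, while Bcl3, Nfkbib and Nfkbiz rose. How often shares separate in other sets of genes was not looked at. The SD of the Nfkbia share was smaller in the emodin group than in vehicle, and that of the Bcl3 share was larger. The summed level of the 5 IκB genes ran from 31.7 to 40.8 CPM per kb in vehicle livers and from 31.4 to 64.7 CPM per kb in the emodin group. Divided by the summed level of the subunits it was 2.458 to 3.414 in vehicle and 1.967 to 3.195 in emodin livers, so the groups overlapped. In the subunit pool Rela took 69.6 ± 2.03% in vehicle and 68.9 ± 3.32% in emodin livers. Nfkb1 had 12.4 ± 0.944% against 9.62 ± 1.8%, and Nfkb2 8.64 ± 1.6% against 10.8 ± 2.09%. The summed level of the 5 subunits was 11.5 to 13.7 CPM per kb in vehicle livers. It was 20.1, 17.7, 29.6 and 15.96 CPM per kb in emodin 2, 4, 5 and 8 and 12.0 to 13.0 CPM per kb in the other 4 emodin livers.

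**Figure D4:**
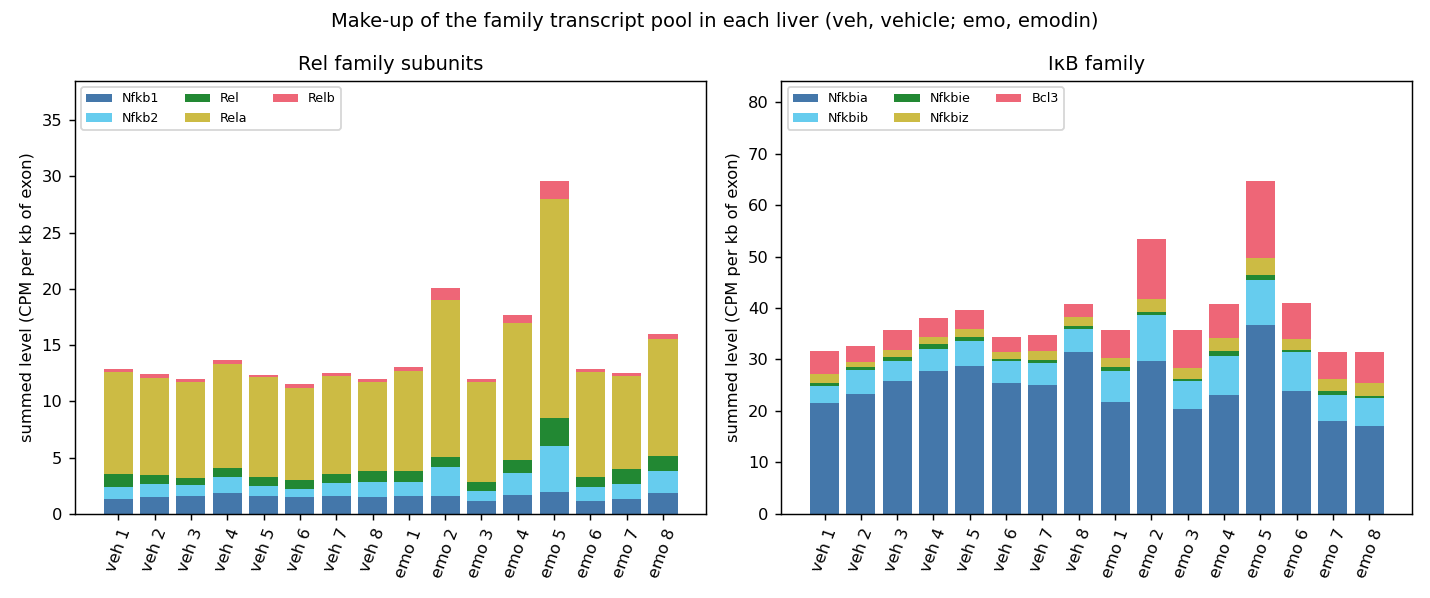
Stacked bars of the level (CPM per kb of exon) of the 5 subunit genes (left) and the 5 IκB genes (right) in each liver. The subunit bars are tallest in emodin 5 (29.6) and emodin 2 (20.1), and the Bcl3 segment at the top of the IκB bars is a larger part of every emodin bar (15.2% or more) than of every vehicle bar (14.2% or less).

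Promoter sequence was available for 7 of the 10 genes (9 windows, RefSeq, GRCm38.p6, from 250 bases before to 50 bases after an annotated start). Both strands were searched for the κB consensus, the 10-base element that NF-κB dimers bind, allowing overlapping matches. A match was found for 5 of the 7 genes, and for 9.55% of the 27025 genes in the same table. Nfkb1, Relb and Nfkbiz were not searched. The matches are shown because they lie at genes of the family that rose and at genes that did not pass the test; capitals mark the match, with 10 bases on each side, written 5′ to 3′ on the strand of the gene:
Bcl3, chr7:19822734-19822763, minus strand, match starting at base 3 of the transcript: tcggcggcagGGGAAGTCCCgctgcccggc
Nfkb2, chr19:46304688-46304717, plus strand, match starting 39 bases before the first annotated start: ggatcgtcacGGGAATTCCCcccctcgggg
Nfkb2, chr19:46304716-46304745, plus strand, 11 bases before the same start: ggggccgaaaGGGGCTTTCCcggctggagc
Nfkb2, chr19:46305695-46305724, plus strand, 225 bases before the last annotated start: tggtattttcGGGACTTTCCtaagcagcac
Nfkbia, chr12:55492657-55492686, minus strand, 29 bases before the start: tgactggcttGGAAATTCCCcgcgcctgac
Rel, chr11:23771042-23771071, minus strand, 92 bases before the start: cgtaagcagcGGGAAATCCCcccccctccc
Nfkbie, chr17:45555584-45555613, plus strand, 106 bases before the start: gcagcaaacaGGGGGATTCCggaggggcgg
Overlapping matches shifted by a single base are not repeated, and Nfkb2 has a further match at 236 bases before its middle start. Of the genes with a match, Bcl3 rose, Nfkb2 was at the threshold, and Nfkbia, Rel and Nfkbie did not pass the test. The windows of Rela and Nfkbib held no match, which says only that these letters are not in these windows, and Nfkbib rose. A match is a description of sequence, not evidence of binding in these livers.

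For the most abundant inhibitor and for the subunit gene with most matches, the 250 bases before the start are printed whole, with matches in capitals. The Nfkb2 window is chr19:46304487-46304736 on the plus strand and that of Nfkbia is chr12:55492648-55492897 on the minus strand:
Nfkb2: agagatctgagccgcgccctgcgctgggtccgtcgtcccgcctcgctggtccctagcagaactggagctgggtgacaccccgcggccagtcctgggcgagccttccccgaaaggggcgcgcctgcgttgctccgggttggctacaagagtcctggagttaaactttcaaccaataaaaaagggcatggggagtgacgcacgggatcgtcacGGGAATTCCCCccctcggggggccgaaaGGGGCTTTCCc
Nfkbia: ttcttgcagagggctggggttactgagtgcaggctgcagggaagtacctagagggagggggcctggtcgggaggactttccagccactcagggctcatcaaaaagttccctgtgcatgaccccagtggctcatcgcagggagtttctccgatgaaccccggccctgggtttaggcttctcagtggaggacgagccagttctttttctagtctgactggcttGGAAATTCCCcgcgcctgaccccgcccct

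The genes upstream and downstream of the family were read from 5 lists of the pathway. Together these held 82 genes outside the family, of which 72 could be tested: 19 rose (26.4%) and 0 fell, against 7.7% higher and 5.47% lower among all tested entries. The median log2 fold change was 0.18, and 0.01 over all tested entries. Lists share members, so the counts per list do not add up.

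Among receptors that feed NF-κB, 3 of 8 tested genes rose and 0 fell, with a median log2 fold change of 0.52. Il1r1, the signalling receptor of IL-1, rose 2.34-fold from 56.8 ± 10.6 to 133 ± 44.9 CPM (edgeR adjusted p = 0.000882), and none of its 8 emodin levels lay within the vehicle range. It was called in all 14 alternatives and 16 fits without 1 liver, and without emodin 2, 4, 5 and 8 the rise was 2.03-fold (edgeR adjusted p = 0.00534, over the alternatives from 1.76e-08 to 0.0127). Tnfrsf1a, the main TNF receptor, rose 1.42-fold (edgeR adjusted p = 0.00788), and Ltbr, the lymphotoxin receptor of the alternative pathway, 1.21-fold (edgeR adjusted p = 0.0208). Both lost their call without these 4 livers, with log2 fold changes of 0.25 and 0.24, against 0.50 and 0.28 with all livers. That fit has fewer emodin livers, so a call can be lost with little change in the estimate, as for Ltbr. Tlr2, a receptor of bacterial lipoproteins, had a log2 fold change of 1.66 ± 0.57 SE that did not pass (edgeR adjusted p = 0.0677) and was 0.92 without emodin 5 alone and -0.25 without the 4 livers. Tnfrsf1b, the other TNF receptor, had -0.21 and did not pass (edgeR adjusted p = 0.237).

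Of the IKK complex and related kinases 1 of 11 rose (9.09%) and 0 fell (median log2 fold change 0.16), a share near the 7.7% of all tested entries called higher. The gene that rose was Map3k14, which encodes NIK, the kinase that drives processing of the Nfkb2 product. It rose 2.05-fold from 1.77 ± 0.298 to 3.64 ± 1.38 CPM (edgeR adjusted p = 0.00553), with 6 of 8 emodin livers above every vehicle liver. Its log2 fold change was 0.48 without emodin 2, 4, 5 and 8, against 1.04 with all livers, and the call was lost. Ikbkg, the regulatory subunit NEMO, had 0.41 ± 0.14 SE (edgeR adjusted p = 0.0654) and Ikbke, a related kinase, 0.55 ± 0.22 SE (0.0993); neither passed. The catalytic subunits Ikbkb and Chuk, named here after their values were seen, had log2 fold changes of 0.12 and -0.23 and did not pass (edgeR adjusted p = 0.258 and 0.122).

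Of the adaptors close to the receptors 3 of 13 rose and 0 fell (median 0.12). They were Irak4, a kinase of the IL-1 and Toll-like receptor pathway (1.29-fold, edgeR adjusted p = 0.0260), Ripk1, a scaffold of the TNF receptor (1.20-fold, 0.0337), and Myd88, the adaptor of IL-1 and most Toll-like receptors (1.37-fold, 0.0470). Each of these calls was lost without emodin 2, 4, 5 and 8, and that of Myd88 in 8 of the 14 alternatives and in 11 of the 16 fits without 1 liver. Ripk1 lost its call in 6 of those 16, without vehicle 2, 4 or 5 or emodin 2, 4 or 5, and Irak4 without emodin 2. The log2 fold changes of Irak4, Ripk1 and Myd88 were 0.37, 0.26 and 0.45 with all livers. Over the alternatives they were at least 0.24, 0.17 and 0.11. Traf5 and Traf1, adaptors of TNF receptors, had log2 fold changes of 0.35 and -0.50 and did not pass (edgeR adjusted p = 0.192 and 0.330).

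Among ubiquitin enzymes and brakes of the pathway 4 of 19 rose and 0 fell (median 0.13). Rnf31, the catalytic subunit of the linear ubiquitin ligase that builds the platform for IKK, rose 1.65-fold from 8.24 ± 1.02 to 13.6 ± 3.08 CPM (edgeR adjusted p = 0.00251). Its groups did not overlap, and it was called in all 14 alternatives, at 1.32-fold without emodin 2, 4, 5 and 8 (edgeR adjusted p = 0.0367, over the alternatives from 1.65e-05 to that value). Its partner Rbck1 rose 1.19-fold (edgeR adjusted p = 0.0299), and the A20-binding proteins Tnip1 and Tnip2 rose 1.37-fold and 1.38-fold (0.0264 and 0.0233). All 3 lost their call without emodin 2, 4, 5 and 8. Rbck1 also lost it without vehicle 3, 5 or 6 or emodin 2 or 4 alone, and Tnip1 without vehicle 3 or emodin 2 or 4 alone. The log2 fold changes of Rbck1, Tnip1 and Tnip2 were 0.25, 0.45 and 0.46 with all livers. Over the alternatives they were at least 0.16, 0.18 and 0.28. Sharpin, the other partner of Rnf31, had a log2 fold change of 0.17 and did not pass (edgeR adjusted p = 0.105). Tnfaip3, which encodes the deubiquitinase A20, had a log2 fold change of 1.15 ± 0.46 SE that did not pass (edgeR adjusted p = 0.110) and was 0.55 without emodin 5 alone and -0.19 without the 4 livers.

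Of the classical target genes 9 of 27 tested rose and 0 fell (median 0.46), and 9 others, among them Tnf, Il6 and Cxcl2, had too few counts for the test. Lcn2, the gene of lipocalin 2, which binds bacterial siderophores, Bcl2l1, which encodes the survival protein Bcl-xL, Cxcl1, a chemokine for neutrophils, and Cxcl10, a chemokine that interferons induce as well, had the smallest p. Bcl2l1 rose 1.63-fold from 25.6 ± 5.30 to 41.7 ± 8.89 CPM (edgeR adjusted p = 0.00591), and Cxcl1 3.78-fold (0.00809). Lcn2 rose 61.0-fold and was the one target gene of this list still called without emodin 2, 4, 5 and 8, at 4.91-fold (edgeR adjusted p = 0.0235, over the alternatives from 2.17e-11 to 0.0947). Its levels were 5.20 ± 1.74 CPM in vehicle and 318 ± 379 CPM in emodin livers. The emodin livers ran from 7.66 to 1058 CPM, and the lowest was under the highest vehicle liver (8.41 CPM). The call of Lcn2 was lost in limma-voom with array weights. Cxcl10 had a log2 fold change of 3.99 with all livers (edgeR adjusted p = 0.0186) and -0.63 without these 4. It lost its call in 6 of the 14 alternatives, and its fold was 15.9 with all livers and 9.53 without emodin 5 alone. Irf1 and Ccl2 did not pass (log2 fold changes 0.53 and 2.22, edgeR adjusted p = 0.0647 and 0.107), and Ccl2 was at 1.60 without emodin 4 alone.

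**Figure D5:**
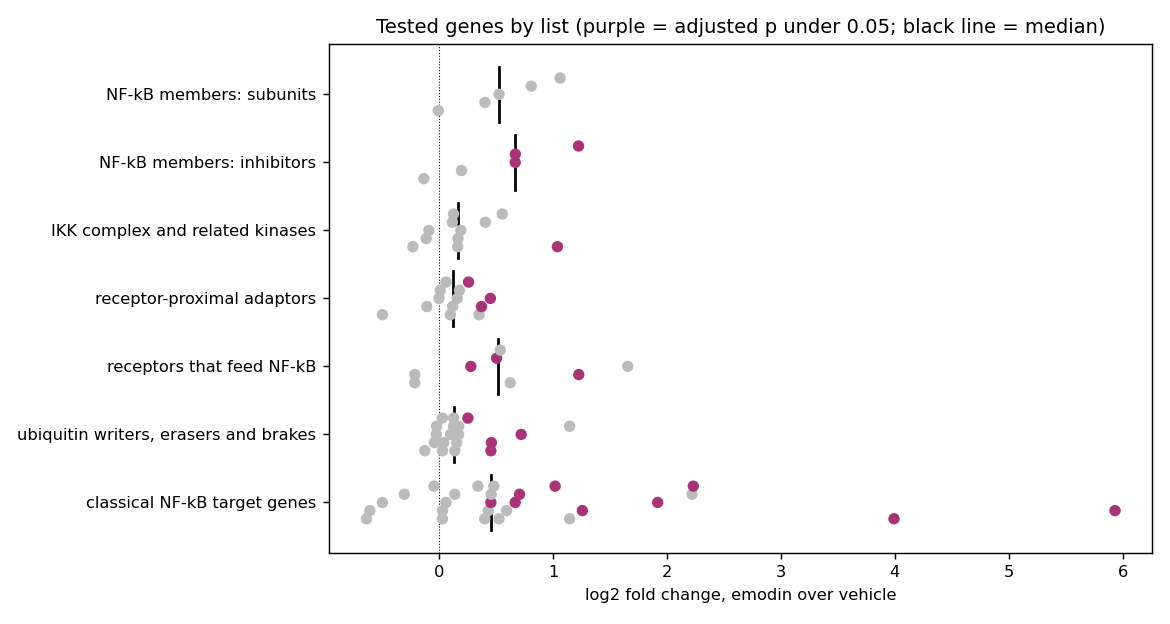
Log2 fold change (emodin over vehicle) of every tested gene in the 2 groups of the family and the 5 pathway lists; purple points have an adjusted p under 0.05 and black lines are list medians. All purple points lie to the right of 0, none of the 5 subunit genes is purple, and the target list spreads furthest, up to Lcn2 at 5.93.

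When emodin 2, 4, 5 and 8 were left out, 6 genes of the family and the pathway lists remained called: Bcl3, Nfkbib and Nfkbiz of the family, the receptor gene Il1r1, the ubiquitin ligase gene Rnf31, and Lcn2. Each was also called with all livers. In this fit 1008 of 14821 tested entries (6.8%) were called in either direction, 573 higher and 435 lower. The 3 genes left of the 72 pathway genes were all higher. Their share is near that of all entries called higher, so it is not read as a result about the pathway.

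The profiles over the 16 livers that were nearest to each of the 3 risen genes were found among 11667 annotated genes with a mean of at least 1 CPM, by the root mean square difference of log2 CPM relative to the vehicle mean. Nearest to Bcl3 were Saa4, a constitutive serum amyloid A gene (0.28), Arl15 (0.33) and Pgpep1 (0.35). Nearest to Nfkbiz were Sbno2 (0.18), Tmem87b (0.18) and Suco (0.19), and nearest to Nfkbib were Grina (0.16), Ncdn (0.19) and Tnk2 (0.19). All 9 of these genes rose (log2 fold changes 0.46 to 1.37, edgeR adjusted p from 0.000245 to 0.0172), but they were chosen for their likeness to a gene that rose, so this is a description. Ncdn, Tnk2, Sbno2 and Suco lost their call without emodin 2, 4, 5 and 8 (edgeR adjusted p = 0.149, 0.156, 0.0971 and 0.0755), and the other 5 did not.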

How the data were processed

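The authors deposited 1 table of 16 libraries whose values are whole numbers and were treated as estimated counts per entry, although the table is named for FPKM. The submitters' processing notes name the build mm10 and the tools HISAT2, Cufflinks 2.2.1, HTSeq 0.6.1, cutadapt 1.9.1 and SAMtools 0.1.19; which of them made these values, and whether counting used strand, is not given in the sources used here. Libraries were made from liver total RNA with the VAHTS Universal V8 kit, per the labels' protocols.

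Groups were taken from the labels. The deposited estimated counts were filtered with filterByExpr, scaled by TMM and tested for emodin against vehicle with the quasi-likelihood test of edgeR 4.0.16 (R 4.3.3, robust dispersions), and p-values were adjusted by Benjamini-Hochberg over 14308 of 27446 entries. Levels are TMM-scaled CPM, and log2 levels used a prior count of 2. The test was checked on simulated counts that had the same dispersion in both groups. That check therefore does not cover the larger spread within the emodin group. Alternatives used other scaling, filters and tests (DESeq2 1.42.0, limma 3.58.1), a replicate block, and left out livers. The family and the pathway and marker lists were chosen with earlier results of these data known, as was leaving out emodin 2, 4, 5 and 8 together. Genes named from a pathway list are up to 4 called ones with the smallest p in each direction and up to 2 that did not pass. Pathway lists are described by counts, with no set test. Promoter sequence came from RefSeq (GRCm38.p6) and exon lengths from GENCODE M21.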

Additional observations from a re-analysis of the deposited data

Results flagged for a closer look

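Rel in emodin 5, at 18.3 CPM, lay far from the other emodin livers: the gap to the next liver was 0.667 of the range of the group, above the critical value of 0.526 for 8 samples. This was 1 of 20 sets of a gene and a group looked at, and chance gives about 1 in 20. Without emodin 5 the log2 fold change of Rel was 0.31 (edgeR adjusted p = 0.159), against 0.53 with all livers, and neither passed the test.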

How the results depend on the processing

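Bcl3, Nfkbib and Nfkbiz kept their direction and their call in all 14 alternatives and in all 16 fits without 1 liver, with log2 fold changes of 0.879 to 1.248, 0.48 to 0.70 and 0.47 to 0.71 over the alternatives. Of the 10 genes, 3 were called with all livers, 5 by DESeq2 and from 3 to 6 when 1 liver was left out (6 without emodin 3, 5 without emodin 7). The share of all tested entries called was 13.2% with all livers, 17.7% by DESeq2, 14% without emodin 3 and 15.3% without emodin 7. Of the 1884 entries called, 1102 were higher and 782 lower; leaving out 1 liver gave 1246 to 2200 in all, 709 to 1333 higher and 521 to 903 lower, and leaving out emodin 2, 4, 5 and 8 gave 1008, 573 and 435. Quantile normalization gave 790 higher and 996 lower. Of the other pathway genes 19 were called, against 8 with array weights, 3 without these 4 livers and 11 to 24 without 1 liver (11 without emodin 2, 12 without emodin 4, 24 without emodin 7). The share of all tested entries called was 12.3% with array weights and 6.8% without these 4 livers. It was 8.8% without emodin 2, 8.66% without emodin 4 and 15.3% without emodin 7. Leaving out 1 liver moved the mean shares of the subunits in the emodin group within 9.23% to 10.03% for Nfkb1, 10.4% to 11.3% for Nfkb2, 7.09% to 7.91% for Rel, 68.0% to 69.4% for Rela and 2.93% to 3.50% for Relb. The log2 fold change of Nfkb1, near 0, turned positive with total counts (0.0369), with no filter (0.000234) and without vehicle 4 (0.0305) or emodin 3 (0.0549), 6 (0.0512) or 7 (0.0282), within a range of -0.0662 to 0.0549 without 1 liver. Without emodin 2, 4, 5 and 8 the sign turned for Relb (-0.18), Tlr2 (-0.25), Tnfaip3 (-0.19), Cxcl10 (-0.63) and Ccl2 (-1.32, and -0.30 with array weights). The fit without these livers has 4 emodin livers; the cause of these changes was not tested.

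With the replicate number as a block, 3 genes of the family, 10 other pathway genes, 628 higher entries and 1263 entries in all (8.83% of those tested) were called. The labels do not say whether equal numbers pair the livers. The correlation of deviations between same-numbered livers ran from -0.149 to 0.245, which cannot decide this. For emodin 1 and 4 the same-numbered vehicle liver was the best match, and for each of the others it was a different one. Relb and Nfkbie had the fewest counts, from 18 and 35 per liver, which limits the precision of their changes.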
